A study of Bos taurus with 6 samples.

Results

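A set of 8 genes of hyaluronan metabolism was followed in bovine articular chondrocytes with and without forced CREB5: the synthases HAS1, HAS2 and HAS3, the hyaluronidases HYAL1 and HYAL2, the hyaluronan-degrading protein CEMIP, the hyaluronan-binding protein TNFAIP6 and the receptor CD44. They were chosen by symbol. All 8 members were found, each under 1 identifier, among 27607 genes in the deposited tables. All 8 also had a mean of at least 10 normalized counts over the 6 libraries and so were among the 13180 genes tested.

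The cells were deep zone chondrocytes of bovine articular cartilage, from 3 independently collected knees. Both groups carried a lentivirus with doxycycline-inducible bovine CREB5, had been through 11 days of selection in 500 µg/ml G418, and were kept on low attachment plates in DMEM/F12. The medium held 10% FBS, 20 ng/ml TGFb2 and 100 ng/ml TGFa. RNA was taken after 3 days. Dox- cultures (3 libraries) received no doxycycline and Dox+ cultures (3 libraries) received it, at 1 µg/ml per the treatment protocol. No group of cells without the virus received doxycycline, so effects of the drug and of CREB5 cannot be told apart here. The labels do not state the strain, age or sex of the animals.

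Hyaluronan is a long, unsulfated sugar chain of alternating glucuronic acid and N-acetylglucosamine. It is made at the plasma membrane by the HAS synthases from UDP-sugars and extruded directly into the matrix. In cartilage it is the backbone to which aggrecan is bound with the help of link protein, and CD44 holds this coat at the chondrocyte surface. In the joint space it lubricates together with lubricin, the product of PRG4. Hyaluronidases and CEMIP cut the chain, and fragments are taken up and broken down in lysosomes.

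Library depth ranged from 20063379 to 122366790 reads, and 14783 to 16260 genes had reads. CREB5 was 510, 308 and 330 normalized counts in Dox- libraries 1, 2 and 3 against 20935, 12413 and 21964 in Dox+ libraries 1, 2 and 3, so every library fitted its label. Counts of CREB5 do not separate the transgene from the cell's own gene. Of 9 tested chondrocyte markers, 0 were higher and 2 were lower in Dox+ cells (ACAN and COL9A1), and 5 were lower when the replicate number was a block. The summed level of the 11 chondrocyte markers was 156166 to 309154 normalized counts in Dox- and 102735 to 120736 in Dox+ libraries. Leukocyte markers summed to 206 to 495 in Dox- and 381 to 741 in Dox+, and 0 of 3 tested markers were called. Most of the sum came from CD68, at 138 to 582 over the libraries, and CD14, at 56.2 to 198. TYROBP was 32.5 in Dox- 1 and 23.7 in Dox+ 1 and 0 elsewhere. PTPRC and AIF1 were near 0, and ITGAM was at 0 in every library. Endothelial markers summed to 131 to 294 and 153 to 225, and 0 of 3 tested markers were called. CDH5 and EMCN had reads only in Dox- 1, 6 and 2 of them. KDR, also below the filter, had 1, 2 and 0 reads in the Dox- libraries against 0, 9 and 5 in the Dox+ libraries. The tested markers were TEK, at 63.6 to 171 over the libraries, VWF, at 23.7 to 77.8, and PECAM1, at 11.6 to 101. All 7 synovial fibroblast markers were tested and none passed (with the block 1 was higher and 2 lower), and their sum was 113716 to 157667 in Dox- and 96274 to 121730 in Dox+. Smooth muscle markers summed to 2337 to 7953 and 5670 to 16972, and 1 of 3 tested, ACTA2, was lower; with the block DES was higher as well (adjusted p = 0.0014). The part of these shifts in the results below was not tested, and in bulk RNA fewer cells of a type and less RNA per cell cannot be told apart.

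Levels are normalized counts, and the 3 values of a group are given in the order of the library numbers 1, 2 and 3. Fold changes are differences of group means of log2(normalized count + 1), tested with limma at an adjusted p under 0.05. Of the 8 members 1, TNFAIP6, was called higher in Dox+ cells and 0 were called lower, against 2.52% of all tested genes called higher and 0.357% called lower. With the replicate number as a block, CD44 was called as well: 2 of 8 members were higher, against 4.86% of all genes, and 0 lower, against 1.65%. Members called higher numbered 1 in edgeR (2.31% of all genes) and 2 with the block (4.48%). In DESeq2 they numbered 2 (4.12%) and, with the block, 4 (5.64%). Same-numbered libraries deviated together from their group means, least so for number 3, so blocked values are given where they change a call. The median log2 fold change of the 8 members was 0.76, against -0.004 over all tested genes. Of the 8 values 6 were above 0, against 6525 of the 13180 tested genes. These 6 include HAS1, which has few reads and passed the filter on low values only through 2 Dox+ libraries.

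**Figure D1:**
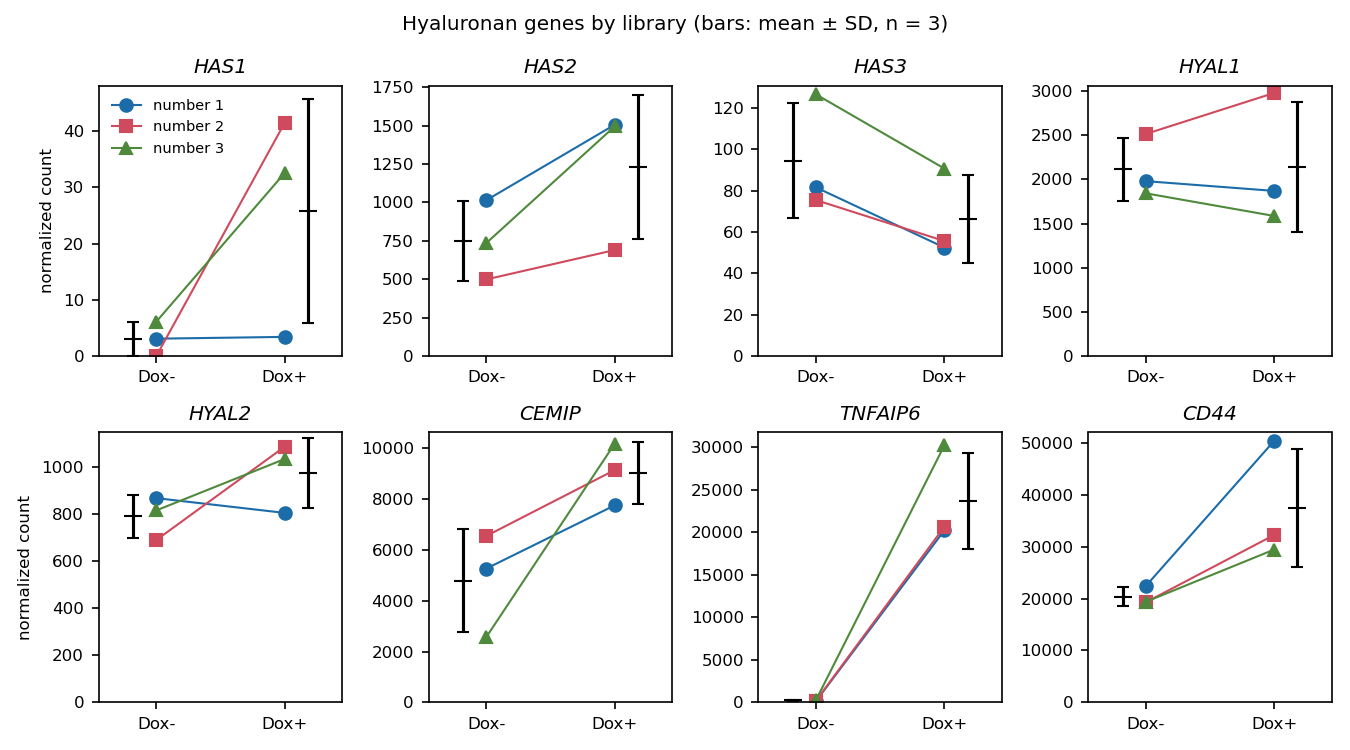
Normalized counts of the 8 genes in each library, Dox- at left and Dox+ at right of each panel, with lines joining libraries of the same number and bars giving the mean ± SD (n = 3). TNFAIP6, CEMIP and CD44 do not overlap between the groups, while the other 5 genes do.

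TNFAIP6 (ENSBTAG00000007239) encodes TSG-6, a secreted protein whose link module binds hyaluronan and which transfers protein heavy chains onto it. Its level was 175, 219 and 303 normalized counts in the Dox- libraries. In the Dox+ libraries it was 20226, 20650 and 30212. The lowest Dox+ library thus stood far above the highest Dox- library, with no overlap. The transcript took up 0.000343% to 0.000567% of all normalized counts in Dox- libraries and 0.0382% to 0.0648% in Dox+ libraries. Such a gap with Dox+ above Dox- was found for 8.88% of the tested genes, and for 3 of the 8 members (TNFAIP6, CD44 and CEMIP). The opposite gap was found for 6.29% of tested genes and 0 members.

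The change of TNFAIP6 was 102-fold, with a 95% interval of 68.5 to 153 (log2 fold change 6.68, SE 0.25, n = 3 per group, limma adjusted p = 4.2e-06). Within same-numbered pairs it was 115-fold, 93.9-fold and 99.3-fold. Its log2 fold change ranked 34 among the 13180 tested genes. CREB5 itself differed 47.8-fold in the same fit. The counts behind the Dox- values were 285, 148 and 496 reads, so the low group was measured well above the floor of 3 reads. The call of TNFAIP6 was kept in all 21 alternative fits, with log2 fold changes from 6.49 to 6.89.

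CD44 (ENSBTAG00000011578) is the main cell surface receptor for hyaluronan and anchors the pericellular coat of chondrocytes. Its level was 22425, 19285 and 19376 normalized counts in the Dox- libraries. In the Dox+ libraries it was 50360, 32237 and 29424. The Dox- libraries lay close together, and Dox+ 1 stood above Dox+ 2 and Dox+ 3. The groups did not overlap, and the pair ratios were 2.25, 1.67 and 1.52.

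Without the block CD44 did not pass: it was 1.79-fold higher, with a 95% interval of 1.23 to 2.59 (log2 fold change 0.84, SE 0.24, limma adjusted p = 0.14). With the block the interval narrowed to 1.33 to 2.40 and the adjusted p was 0.026. On recovered reads, edgeR gave an adjusted p of 0.14 without the block and 0.031 with it. DESeq2 on the same reads passed both ways, with adjusted p of 0.020 and 0.0011. In the authors' deposited table the adjusted p of CD44 is 0.0015. When both libraries numbered 1 were left out of the blocked fit, the limma adjusted p was 0.32.

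CEMIP (ENSBTAG00000007431) encodes a protein that degrades hyaluronan outside lysosomes and was named a hyaluronidase in the deposited annotation. Its level was 5265, 6549 and 2568 normalized counts in the Dox- libraries. In the Dox+ libraries it was 7752, 9141 and 10174. The groups did not overlap, but most of the difference came from the third pair, since the pair ratios were 1.47, 1.40 and 3.96. Dox- 3 was the lowest library of all. CEMIP was 2.01-fold higher (95% interval 1.21 to 3.35) and did not pass, with a limma adjusted p of 0.22, or 0.064 with the block. The adjusted p was 0.011 in DESeq2 with the block and is 0.0083 in the authors' deposited table. Without Dox- 3 the log2 fold change was 0.61 in place of 1.01.

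HAS2 (ENSBTAG00000019892) is the synthase best known from chondrocytes and from the developing embryo. It gave 1014, 498 and 735 normalized counts in the Dox- libraries. In the Dox+ libraries it gave 1506, 690 and 1495. The groups overlapped, because Dox+ 2 lay below Dox- 1 and Dox- 3. The library numbered 2 was the lowest of its group on both sides, and within each pair Dox+ was higher, by 1.48, 1.38 and 2.03 times. Of all tested genes, 19.5% were higher in each of the 3 pairs, as were 4 of the 8 members (TNFAIP6, CD44, CEMIP and HAS2) besides HAS1, whose first pair rests on 5 and 2 reads. Another 19.0% were lower in each pair, as was HAS3.

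The difference in HAS2 was 1.61-fold, with a 95% interval of 0.902 to 2.87 (log2 fold change 0.69, SE 0.37, limma adjusted p = 0.62). With the block the interval was 1.18 to 2.20, but the gene did not pass over all genes (adjusted p = 0.087). It passed in DESeq2 with the block (adjusted p = 0.039), and its adjusted p in the authors' deposited table is 0.049. The authors' table gives adjusted p under 0.05 to 4 of the 8 members (TNFAIP6, CD44, CEMIP and HAS2), against 5.24% of its genes called higher. DESeq2 with the block called the same 4 members. The authors' table rests on the same 6 libraries, so it is not independent of the fits given here. The labels give no test design for it beyond the groups.

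HAS3 (ENSBTAG00000050602), a synthase with lower counts, went the other way. It was 81.6, 75.4 and 127 in the Dox- libraries against 52.5, 55.6 and 90.7 in the Dox+ libraries. Each Dox+ library was below its same-numbered Dox- library, at 0.648, 0.741 and 0.719 of it, while the groups overlapped through Dox+ 3. The difference did not pass: the fold was 0.701, with a 95% interval of 0.376 to 1.31 (limma adjusted p = 0.81, and 0.51 with the block). In the RefSeq gene table of another build, ARS-UCD2.0, HAS3 overlaps CHTF8 and DERPC. The sources used here do not give the strand setting of the counting, so reads of overlapping genes may not be separated.

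HAS1 (ENSBTAG00000017672), the remaining synthase, had few reads. There were 5, 0 and 10 reads in the Dox- libraries against 2, 94 and 14 in the Dox+ libraries, which are 3.07, 0 and 6.12 and 3.38, 41.5 and 32.6 normalized counts. Dox+ 2 and Dox+ 3 stood above every Dox- library, whereas Dox+ 1 lay below Dox- 3. HAS1 passed the filter on low values only through those 2 Dox+ libraries. Its log2 fold change was 2.59, with a 95% interval from 0.03 to 5.14 (limma adjusted p = 0.46). The value of Dox+ 1 and that of Dox- 1 rest on at most 5 reads, and a floor of 3 reads was worth 1.32 to 6.98 normalized counts across the 6 libraries.

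HAS2 gave most of the synthase reads in every library, between 84.7% and 92.3% of the summed HAS normalized counts in Dox- and between 87.7% and 96.4% in Dox+. These shares are of reads and not corrected for transcript length. The share of HAS3 was 7.42%, 13.1% and 14.6% in the Dox- libraries against 3.36%, 7.07% and 5.60% in the Dox+ libraries. It was therefore lower in Dox+ within each pair, and every Dox+ library was below every Dox- library. That gap rests on HAS1 reads in the sum, 5.27% of it in Dox+ 2: the ratio of HAS2 to HAS3 was 12.4, 6.61 and 5.81 in the Dox- libraries against 28.7, 12.4 and 16.5 in the Dox+ libraries, where Dox+ 2 lay just below Dox- 1. The summed HAS level was 1099, 574 and 868 in the Dox- libraries against 1562, 787 and 1619 in the Dox+ libraries, so the groups overlapped.

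HYAL1 and HYAL2 encode hyaluronidases, the first lysosomal and the second tethered to the cell surface. HYAL1 (ENSBTAG00000000483) was 1981, 2516 and 1842 normalized counts in the Dox- libraries against 1870, 2980 and 1586 in the Dox+ libraries. The Dox+ libraries held both the highest and the lowest value, and the fold was 0.987 with a 95% interval of 0.656 to 1.49 (limma adjusted p = 0.99). Its sign turned with the scaling, to a log2 fold change of 0.09 at equal library totals. HYAL2 (ENSBTAG00000000484) was 866, 689 and 815 in the Dox- libraries against 804, 1085 and 1032 in the Dox+ libraries. It was higher in 2 of 3 pairs, 1.23-fold in the fit with an interval of 0.880 to 1.71 (adjusted p = 0.78). Changes from 0.656-fold to 1.49-fold in HYAL1 and from 0.880-fold to 1.71-fold in HYAL2 thus lie within the intervals. HYAL2 overlaps TUSC2 in the RefSeq table, and CD44 overlaps LOC132342358, a long noncoding RNA, in the same table.

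**Figure D2:**
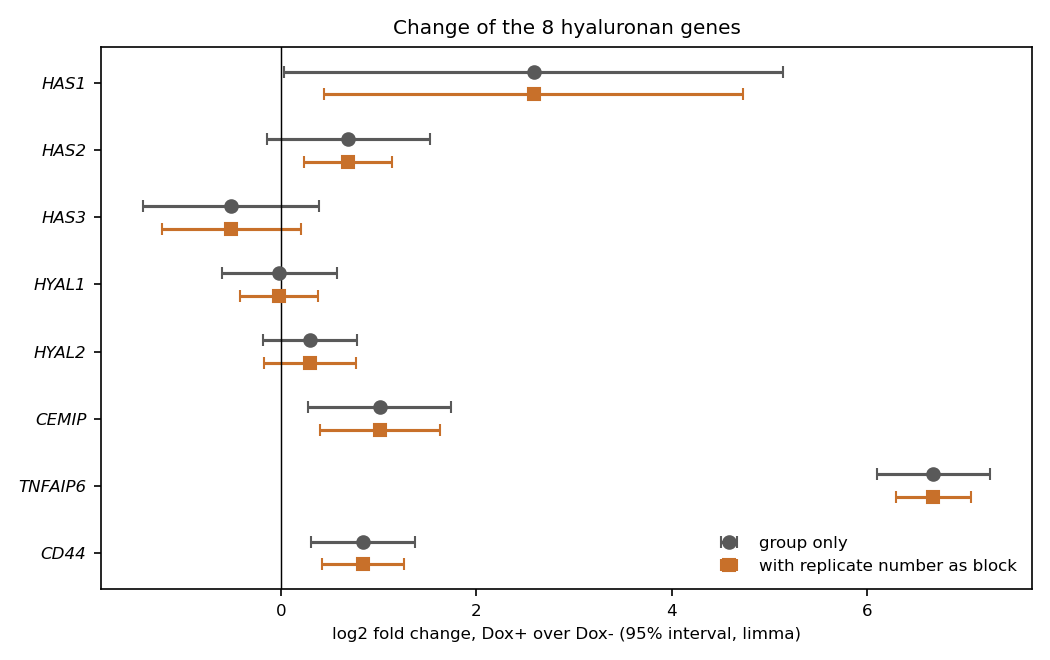
Log2 fold change of each of the 8 genes, Dox+ over Dox-, with its 95% interval from limma with group as the only term (circles) and with the replicate number as a block (squares). TNFAIP6 lies at 6.68, all others lie below 3, and the intervals of HAS3, HYAL1 and HYAL2 include 0 in both fits.

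A further 50 genes of the pathway were listed by role. Of them 47 were in the tables and 33 were tested; 4 rose (GFPT2, CEMIP2, VCAN and PRG4), 1 fell (ACAN) and 28 did not pass. Over all tested genes 2.52% were called higher and 0.357% lower. Blocking by number left 5 higher and 1 lower, beside 4.86% and 1.65% of all genes. Over the 33 genes the median log2 fold change was 0.17.

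Enzymes that supply the UDP-sugars come first. Of 11 tested, 1 rose, GFPT2, and 0 fell, with 1 more, UGP2, called higher with the block. GFPT2 is a glutamine-fructose-6-phosphate transaminase, which opens the hexosamine pathway to UDP-N-acetylglucosamine. It was 13704, 12455 and 13766 normalized counts in the Dox- libraries against 31830, 34145 and 31059 in the Dox+ libraries. Both groups were tight and far apart, with a 2.43-fold difference (SE of the log2 fold change 0.16, limma adjusted p = 0.0038). Its paralog GFPT1, with the same reaction, was 3251, 2711 and 1551 in the Dox- libraries against 3828, 2418 and 2984 in the Dox+ libraries, which overlap (adjusted p = 0.83).

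UGP2 makes UDP-glucose, the precursor of UDP-glucuronic acid. It was 23681, 18267 and 19640 in the Dox- libraries against 43975, 31992 and 33056 in the Dox+ libraries, with no overlap. The difference was 1.76-fold (limma adjusted p = 0.094, and 0.019 with the block). GNPNAT1, the acetyltransferase that follows GFPT1 and GFPT2, was named after its values were seen: it was 557, 525 and 481 in the Dox- libraries against 963, 797 and 898 in the Dox+ libraries. It did not pass at 1.70-fold (adjusted p = 0.11, and 0.052 with the block), but passed in DESeq2 (adjusted p = 0.013). In the authors' deposited table its adjusted p is 0.020. PGM1, a phosphoglucomutase that makes the glucose-1-phosphate used by UGP2, was also named after its values were seen, and it went the other way. It was 10231, 14333 and 10766 in the Dox- libraries against 8488, 9202 and 6507 in the Dox+ libraries, with no overlap and a lower value in each pair, and it did not pass (0.685-fold, adjusted p = 0.35, and 0.12 with the block). These 4 genes, GFPT2, UGP2, GNPNAT1 and PGM1, were those of the 11 whose groups did not overlap. Over all tested genes, 8.88% had such a gap with Dox+ above Dox- and 6.29% with Dox+ below. UGDH, which oxidizes UDP-glucose to UDP-glucuronic acid, was 4019, 5046 and 2806 in the Dox- libraries against 3357, 2354 and 3690 in the Dox+ libraries. Its groups overlapped and its log2 fold change was -0.32 (adjusted p = 0.82). UAP1, which makes UDP-N-acetylglucosamine, also overlapped between groups (1.13-fold, adjusted p = 0.87).

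Among the other breakdown genes, 1 of 4 tested rose and 0 fell. This was CEMIP2, a transmembrane relative of CEMIP that has been described as a cell surface hyaluronidase or a regulator of hyaluronan turnover. It was 2373, 1824 and 2528 normalized counts in the Dox- libraries against 5989, 4162 and 6381 in the Dox+ libraries. The groups did not overlap, and the difference was 2.44-fold (limma adjusted p = 0.016, and 0.0010 with the block). The call was lost in limma without the variance trend (adjusted p = 0.062) and when any of 3 libraries was left out, with adjusted p of 0.069 without Dox- 2, 0.078 without Dox+ 1 and 0.11 without Dox+ 3. The lysosomal enzymes HEXA and GUSB, which trim hyaluronan fragments, had log2 fold changes of 0.29 and 0.23 and did not pass. HYAL3 did not pass either (log2 fold change -0.32), and HYAL4 and SPAM1 had 0 reads in each of the 6 libraries.

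The partners of TSG-6 were almost unread. TSG-6 moves heavy chains of inter-alpha-inhibitor, a serum protein made mainly by the liver, onto hyaluronan. None of the 6 listed partners in the tables reached the filter. ITIH1 and ITIH3 had 0 reads in every library, and the highest value of ITIH2, ITIH4, ITIH5 or the pentraxin PTX3 in any library was 13.3 normalized counts. PTX3 was 7.36, 1.48 and 0 in the Dox- libraries against 10.2, 0.883 and 11.6 in the Dox+ libraries, and these groups overlap.

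Of the proteoglycans and link proteins with a link module, 4 of 8 were tested. VCAN, versican, rose and ACAN, aggrecan, fell, while the link proteins HAPLN1 and HAPLN3 did not pass. VCAN was 3076, 5391 and 1025 in the Dox- libraries against 24500, 27618 and 22843 in the Dox+ libraries. ACAN was 31933, 87457 and 68283 in the Dox- libraries against 7197, 21080 and 11502 in the Dox+ libraries. Neither gene overlapped between groups, and their limma adjusted p were 0.0092 and 0.034. That of VCAN was 0.061 without Dox+ 3, and that of ACAN was 0.12, 0.14, 0.11 and 0.17 without Dox- 2, Dox- 3, Dox+ 1 and Dox+ 3, and 0.11 without the variance trend. HAPLN1 was 11968, 14056 and 9653 in the Dox- libraries against 12892, 7680 and 9323 in the Dox+ libraries, with a log2 fold change of -0.27 (adjusted p = 0.83).

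No other hyaluronan receptor of the 5 tested passed by limma without the block, by edgeR or by DESeq2, and 1 had an unadjusted p under 0.05. This was LAYN, layilin, a C-type lectin receptor, at 6.74, 4.44 and 5.50 normalized counts in the Dox- libraries against 37.2, 12.8 and 20.9 in the Dox+ libraries (adjusted p = 0.30). These values rest on 11, 3 and 9 reads against 22, 29 and 9. With a Dox- mean of 5.56, LAYN passed the filter on low values only through its Dox+ libraries. TLR2, a pattern receptor reported to sense hyaluronan fragments, was 67.4, 1.48 and 22.0 in the Dox- libraries against 79.5, 42.4 and 60.5 in the Dox+ libraries (adjusted p = 0.64). HMMR, the receptor RHAMM, which also acts at the mitotic spindle, overlapped between groups (log2 fold change 0.17). The endothelial receptors LYVE1 and STAB2 were at or near 0 in every library, with at most 2.96 normalized counts.

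CD44 is tied to actin by the ezrin, radixin and moesin proteins and is cut at the cell surface by MMP14, ADAM10 and ADAM17. None of these 6 genes or NF2 passed by limma without the block or by edgeR, and 1 of the 7 had an unadjusted p under 0.05. EZR, RDX and MSN had log2 fold changes of -0.32, -0.03 and -0.06. MMP14, ADAM10 and ADAM17 had -0.03, 0.26 and 0.01. NF2, the merlin tumour suppressor that competes with these linkers, was 2704, 2337 and 4520 in the Dox- libraries against 1841, 1713 and 2014 in the Dox+ libraries. Its groups did not overlap, but it did not pass (adjusted p = 0.28, 0.062 with the block, and 0.024 in DESeq2 with the block). SPP1, osteopontin, a CD44 ligand, overlapped between groups (log2 fold change 0.40, adjusted p = 0.80).

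PRG4, the lubrication partner of hyaluronan, was 571, 1705 and 929 normalized counts in the Dox- libraries. In the Dox+ libraries it was 253217, 565979 and 359117. Library 2 was thus highest in both groups for PRG4, whereas for TNFAIP6 the highest Dox+ library was 3.

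**Figure D3:**
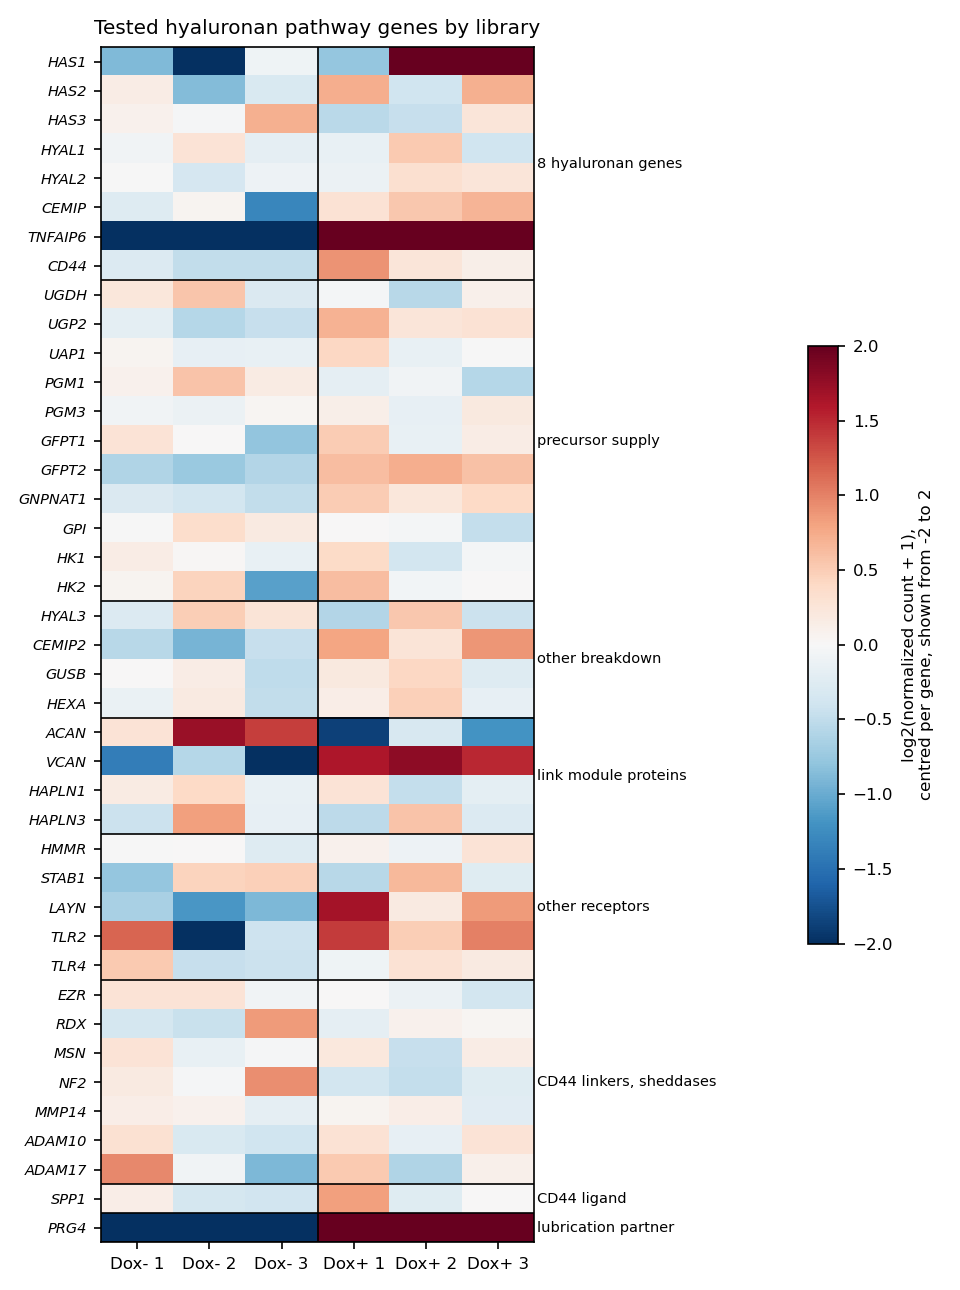
Each row is 1 tested hyaluronan gene and each column 1 library; the colour is log2(normalized count + 1) minus the gene's mean over the 6 libraries, drawn from -2 to 2. TNFAIP6, PRG4, VCAN, GFPT2 and CEMIP2 are among the rows that separate the groups upwards, and ACAN among those that separate them downwards, while most linkers, sheddases and lysosomal enzymes show pale rows.

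Genes with the most similar pattern were sought among 10943 others with a symbol and a mean of at least 50, by the root mean square difference of centred log2 profiles over the 6 libraries. For TNFAIP6 the nearest was CCN3, a secreted matricellular protein, at 0.23. It was 1096, 1321 and 1498 in the Dox- libraries against 153943, 148209 and 154870 in the Dox+ libraries. RSPO3, a secreted amplifier of Wnt signals, followed at 0.25. The third was BMP3, a bone morphogenetic protein relative, at 0.35, with 0 reads in every Dox- library and 134, 83.9 and 181 in the Dox+ libraries. With each Dox- library set to a floor of 3 reads, BMP3 was at least 49.2-fold higher. Its distance and place depend on the added 1, since it has no Dox- read. For the same reason BMP3 reached the mean of at least 50 only through its Dox+ libraries. CREB5 stood at place 16 and PRG4 at place 40.

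For CD44 the nearest profile was that of UGP2, at a distance of 0.11, followed by HDAC11, a histone deacetylase, at 0.12 and CRELD1 at 0.15. HDAC11 was 136, 127 and 122 in the Dox- libraries against 276, 188 and 153 in the Dox+ libraries, so that Dox+ 1 was highest, as for CD44. For HAS2 the nearest were FLT1, a VEGF receptor, at 0.09, NHSL1 at 0.10 and the cyclin gene CCND2 at 0.12. FLT1 was 1090, 586 and 934 in the Dox- libraries against 1926, 798 and 1663 in the Dox+ libraries. The library numbered 2 was again the lowest of each group. Distances are small for a gene whose levels vary little, so they do not compare between TNFAIP6 and CD44 or HAS2.

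The nearest protein-coding gene of the tables on each side of a member was taken from the order of genes in ARS-UCD2.0. Of 14 such neighbours that were not members, 13 were tested and 0 were called by limma with or without the block (3 had an unadjusted p under 0.05), and their log2 fold changes lay between -0.54 and 0.64. Beside TNFAIP6, RIF1, which acts in DNA repair and replication timing, was 1312, 1093 and 1029 in the Dox- libraries against 1939, 1177 and 2009 in the Dox+ libraries. NMI, an interferon-inducible partner of MYC and STAT proteins, was 1531, 1380 and 1506 in the Dox- libraries against 2300, 1782 and 1942 in the Dox+ libraries. These neighbours were thus 1.46-fold and 1.36-fold higher (adjusted p = 0.50 and 0.40), beside the 102-fold of TNFAIP6.

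Both neighbours of CEMIP were also higher in each pair without passing. ABHD17C, a depalmitoylase, was 992, 571 and 588 in the Dox- libraries against 1210, 1028 and 1007 in the Dox+ libraries. MESD, a chaperone of LRP receptors, was 7863, 5434 and 8239 in the Dox- libraries against 10154, 11182 and 8951 in the Dox+ libraries. Neither gene overlapped between groups, with 1.55-fold and 1.42-fold differences (limma adjusted p = 0.39 and 0.40). HYAL1 lies between HYAL2 and HYAL3, and none of these 3 hyaluronidase genes passed. PDHX, beside CD44, was 1.02-fold (adjusted p = 0.99). ZHX2 and CEBPD, on either side of HAS2, had log2 fold changes of -0.06 and -0.54 (limma adjusted p = 0.97 and 0.74), and both overlapped between groups.

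**Figure D4:**
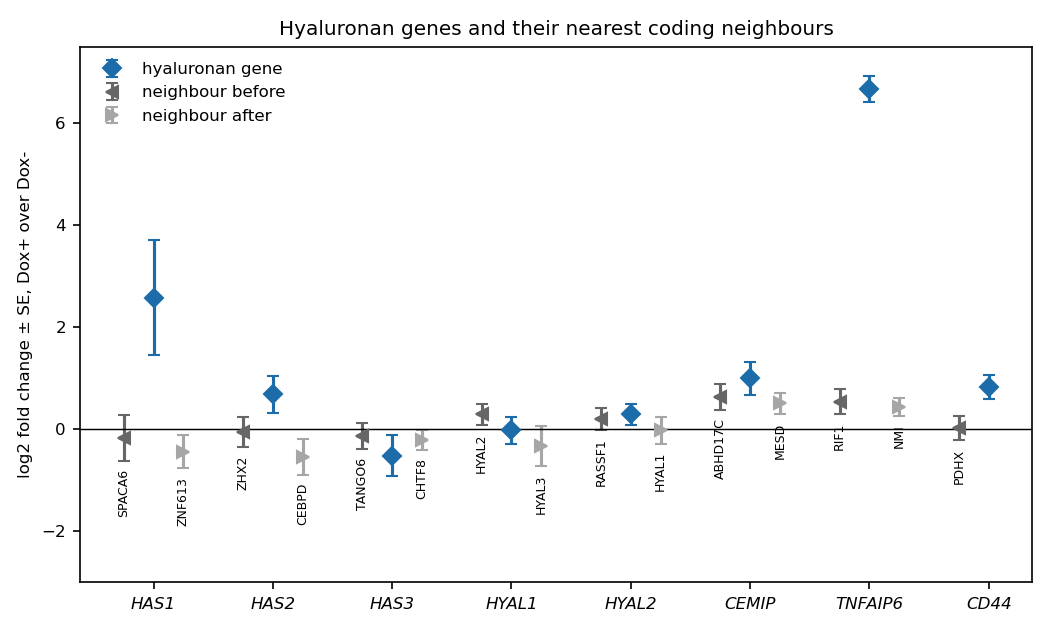
Log2 fold change ± SE (limma, n = 3 per group) of each hyaluronan gene (diamonds) and of its nearest tested protein-coding neighbours before and after it in gene order (triangles, with their symbols). All neighbours lie between -0.54 and 0.64, while TNFAIP6 lies at 6.68.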

How the data were processed

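RNA-seq libraries (KAPA mRNA HyperPrep, Trizol RNA, per the labels' protocols) were grouped by their titles, 3 Dox- and 3 Dox+. The authors deposited normalized counts, a signal in which each library's gene counts were divided by 1 size factor: 100% of values above 0 were whole multiples of 1 step within 0.01 read, so reads could be recovered. The authors' deposited table also gives a log2 fold change, a p-value and an adjusted p-value per gene. The sources used here do not say whether that log2 fold change was shrunken. For HAS1, with few reads, it is 0.26, against 3.00 in DESeq2 on recovered reads. For TNFAIP6 both are 6.67. STAR 2.5.2b, Salmon, DESeq2, FastQC 0.11.3 and MultiQC 1.2 are named, without role, per the submitters' processing notes.

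Groups were compared with limma 3.58.1 (under R 4.3.3; two-sided, with a variance trend) on log2(normalized count + 1), group only, in genes with a mean of at least 10, Benjamini-Hochberg adjusted over all of them at a threshold of 0.05. Alternatives (21) changed the pseudocount, filter, scaling, trend, test (edgeR 4.0.16 and DESeq2 1.42.0 on recovered reads), block and libraries. The fit was tested on simulated counts: of 50 genes changed 2-fold, 62% were called, and of 50 changed 4-fold, 100%, with 13057 genes fitted. Of the unchanged genes, 14 were called. The simulation gave every gene the same dispersion, had no effect of the replicate number, and changed only genes with a mean of at least 50. Its shares therefore do not carry over to genes with a wider spread. In the real libraries COL11A2 was 6.03-fold lower in Dox+ and did not pass without the block (limma adjusted p = 0.055). With the block it was called lower (limma adjusted p = 0.00024).

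Same-numbered libraries correlated in their deviations from the group means (0.65, 0.44 and 0.21 for numbers 1, 2 and 3), so the numbers of the titles were taken as pairs. Libraries of different numbers gave -0.59 to 0.18. Dox- 3 correlated at 0.18 with Dox+ 2, close to its 0.21 with Dox+ 3, so the pair numbered 3 is the least certain. Deviations within a group sum to 0, so these correlations are not independent. The block was thus chosen from the same data. That a number marks a knee is not stated. Without the block the p-values measure the spread over 3 libraries per group, and with it the spread of the differences between same-numbered libraries. In limma each gene's variance is also moderated by those of all tested genes. Replicates of a group differed by far more than sampling noise (chi-square per degree of freedom 57.9 to 435). Floors cover counting error only.

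The members, lists and rules were chosen with earlier results of these data known. The text names all members, CREB5, in each role the genes that passed or else the 2 with the smallest p, the 3 nearest patterns of TNFAIP6, CD44 and HAS2 (the synthase with the most reads), and neighbours. Immediate neighbours that were not coding or not in the tables were passed over. Some other genes are given by value to complete a role. No sequence was analysed here, so promoter motifs were not searched. The remaining listed pathway genes stand in the counts only, and 1 listed gene was left out of the counts and is not reported here.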

Additional observations from a re-analysis of the deposited data

How the results depend on the processing

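TNFAIP6 kept its call in all 21 alternatives. Members called higher numbered 2 in DESeq2, 2 in limma and 2 in edgeR with the replicate block, and 4 in DESeq2 with the block, against 1. With the block and without number 1, 2 or 3 they numbered 3, 4 and 3; such fits have only 1 residual degree of freedom. No member was called lower in any setting. CD44 passed in DESeq2 (log2 fold change 0.88), with the block in limma, edgeR and DESeq2 (0.84 each), and with the block without number 2 (0.88) or 3 (0.95). HAS2 passed in DESeq2 with the block (0.69) and with the block without number 2 (0.80). CEMIP passed in DESeq2 with the block (1.00) and with the block without number 1 (1.23), 2 (1.27) or 3 (0.52), and HAS1 with the block without number 1 (3.82). Without the block, leaving out 1 library called TNFAIP6 alone among the members. HYAL1, which never passed, turned its sign at equal library totals (0.09), in edgeR (0.03) and DESeq2 (0.03), with the block without number 1 (0.01) or 3 (0.08), and with 1 library left out (-0.28 to 0.17). The cause was not tested.

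Over all genes, 332 were higher and 47 lower. Higher and lower calls numbered 640 and 218 in limma with the block, 591 and 190 in edgeR with the block, 743 and 306 in DESeq2 with the block and 542 and 159 in DESeq2. Without the trend 23 were lower. With 1 library left out, 139 to 365 were higher and 9 to 72 lower, and with the block and number 1, 2 or 3 left out, 602, 934 and 917 were higher and 188, 276 and 537 lower. Calls were 87.6% higher in the main fit and 74.6% with the block. Scaling to equal totals moved the median of all genes to 0.10. Synthase shares per coding length were not run, since no coding lengths were given. At this depth HAS1 is limited by its few reads.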
